A study of Homo sapiens with 18 samples.

Results

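The comparison described here set IMR90 cells exposed to 5-fluorouracil (5-FU) for 12 h against IMR90 cells given DMSO for 12 h. It covers 4 of the 18 samples of the series, 2 libraries of each group, chosen by the treatment and time in their labels. IMR90 is an established line of human lung fibroblasts, labelled wildtype, and it was the only cell line used, so every group shares this background and none carries an engineered change. The treated cells received 5-FU at 375 µM and the controls a matched volume of DMSO, the solvent. From the same table of repeat counts, 2 DMSO libraries at 6 h and 2 at 24 h served as a second control, because the DMSO libraries at 12 h stood apart from them. The remaining libraries of that table were 5-FU at 375 µM for 6 h and for 24 h, 2 of each, and 2 untreated libraries whose medium had been renewed 12 h before extraction. The labels do not say whether the replicates were separate cultures, so the p-values measure only the spread between these samples, which may be technical.

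5-FU is a pyrimidine analogue used against cancer. Its metabolites block thymidylate synthase and are built into RNA and DNA, and cells with functional p53 respond to the damage by activating it. What was counted in total RNA was reads on annotated repeats. Alu elements are short retrotransposons that descend from 7SL RNA and crowd into gene-rich DNA, L1 elements are long retrotransposons that carry their own reverse transcriptase and are frequent in gene-poor DNA, and SVA elements are composite retrotransposons of apes. Most copies cannot move, and many lie in introns and are read as part of the host transcript. Repeat annotations also list structural RNAs: transfer RNAs, 7SK, 7SL, BC200 and the Y RNAs are made by RNA polymerase III, most spliceosomal U RNAs by polymerase II, and the large ribosomal RNAs by polymerase I.

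The table held 2404193 repeat copies under 1113 names, without gene names, so the fibroblast identity of the cells could not be checked against markers. Positions are those of the deposited table on hg19, 1-based. No hg19 gene annotation was used here, so no copy is placed in a gene, an exon or an intron. In these bulk samples fewer cells with a transcript and less of it per cell cannot be told apart. Copies of a young family are nearly identical, and how the authors assigned reads that match several copies is not given in the sources used here, so single-copy values in such families are uncertain.

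Total counts were 3927593 and 4084675 in the 5-FU 12 h libraries and 2412334 and 2540089 in the DMSO 12 h libraries, the lowest of the 14, against 2895007 to 6290320 in the others. Structural RNA took 44.7% and 45.2% of counts in the 5-FU 12 h libraries and 31.7% to 39.0% in the 6 DMSO libraries. Tested against the other 4 DMSO libraries, DMSO 12 h itself differed at 1130 of 63602 copies (1.78%) and at 416 of 1078 repeat names (38.6%), 399 of them lower (37%). Every result below is therefore given against DMSO 12 h, called its own DMSO, and against the mean of DMSO 6 h and 24 h. A copy or name is said to have risen or fallen where both differences passed an adjusted p of 0.05 in the same direction. The pair of differences share the 5-FU libraries, so the second checks the control and is not independent evidence.

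Against its own DMSO, 5-FU at 12 h changed 6177 of 63602 tested repeat copies, a background of 9.71%, with 3463 higher (5.44%) and 2714 lower (4.27%). Against the mean of DMSO 6 h and 24 h the count was 9377 (14.7%). In both, 3944 copies changed in the same direction (6.2%), 2381 rose (3.74%) and 1563 fell (2.46%). Of these 3944, 3896 had both 5-FU libraries outside the range of all 6 DMSO libraries, which largely follows from passing both tests. The share of such copies among all tested copies was not computed. A further 2224 copies passed against their own DMSO only, and 9 (0.0142%) passed in opposite directions. The method was edgeR's quasi-likelihood test on counts with Benjamini-Hochberg adjustment over all tested copies. With library size as the only scaling the split against the own DMSO turned to 2056 higher and 4703 lower, and the median log2 difference of all tested copies moved from -0.04 to -0.36. The joint calls then turned to 1333 higher and 2744 lower. Leaving out 5-FU replicate 1 left 2818 copies past the threshold, 5-FU replicate 2 left 2500, DMSO replicate 1 left 2026 and DMSO replicate 2 left 2394, so each of the 4 libraries moved the count by more than 1.5 times.

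Of the 3944 copies, 55 were also called in the same direction at 6 h and 1133 at 24 h. The corresponding backgrounds were 0.101% of copies called at 6 h and 4.23% at 24 h, each against the DMSO of that time. The difference between the 12 h effect and the mean of the 6 h and 24 h effects was itself tested, and 461 copies passed (0.725%), 257 of them among the 3944 and with the sign of the 12 h effect.

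Summed over all copies of a name, 364 of 1078 repeat names differed from their own DMSO (33.8%), 307 higher (28.5%) and 57 lower (5.29%). Against the mean of DMSO 6 h and 24 h 461 names differed (42.8%), and 195 differed from both in the same direction (18.1%): 143 rose (13.3%) and 52 fell (4.82%). The split of these joint calls turned with the scaling, to 108 higher and 159 lower with factors from the filtered copies, 117 and 155 with relative log expression factors, 117 and 152 with DESeq2 and 28 and 344 with library size alone. A lean towards higher names came with the scaling. With scaling factors computed on the filtered copies the split against the own DMSO was 182 higher and 203 lower, and with relative log expression factors it was 184 and 201. Library size alone gave 61 and 436. The median log2 difference of all names from the own DMSO moved with these scalings, from 0.17 to -0.07, -0.02 and -0.40. Of the 195 names, 67 were also called in the same direction at 24 h, beside a background of 12.1%. The 12 h effect differed from the mean of the 6 h and 24 h effects in 150 names (13.9%), of which 80 were among the 195 with the same sign. Without the most abundant copy of each name 52 of the 195 names still passed both tests. The median of all names moved too when those copies were removed, from 0.17 to 0.05 against the own DMSO. Leaving out 5-FU replicate 1 left 176 names against the own DMSO and 5-FU replicate 2 left 163.

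Among the RNAs of polymerase III, BC200, 7SK and a group of transfer RNAs were higher in the 5-FU 12 h libraries than in any DMSO library. BC200 is a neuronal and tumour-associated RNA that descends from an Alu monomer and represses translation, and 7SK holds the elongation factor P-TEFb in an inactive complex.

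BC200 stood at 9940 and 12006 CPM (counts scaled to library size, with TMM factors over all repeat copies) in the 5-FU 12 h libraries. Its own DMSO libraries held 842 and 916, DMSO 6 h 2446 and 2623, and DMSO 24 h 2298 and 2051. Both treated libraries lay above all 6 controls, and DMSO 12 h lay below the other 4. The log2 difference was 3.64 (SE 0.17, edgeR adjusted p = 1.51e-08) against the own DMSO and 2.22 (adjusted p = 1.93e-07) against the others, so the choice of control moved the fold by more than 1.5 times. The copy at chr2:47562454-47562653 carried 99.7% of these counts, and without it the remaining 106 BC200 copies showed -0.06 (adjusted p = 0.932). At 24 h 5-FU stood at 16847 and 10999 CPM, a log2 difference of 2.68 from its own DMSO, and at 6 h at 3923 and 4110, 0.66 with an adjusted p of 0.108.

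7SK reached 179299 and 205154 CPM with 5-FU at 12 h. Its own DMSO libraries held 51567 and 52046, those of 6 h 81369 and 91568, and those of 24 h 104960 and 81099. The treated pair exceeded every control, with a log2 difference of 1.89 (SE 0.21, adjusted p = 2.64e-05) from the own DMSO and 1.1 (adjusted p = 0.000592) from the others. 1 copy at chr6:52860418-52860749 held 99.9% of the counts. At 24 h the 7SK difference was 0.67 with an adjusted p of 0.0562.

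7SL, the RNA scaffold of the signal recognition particle, depended on the control. 7SLRNA stood at 96462 and 99897 CPM with 5-FU, between and near the 80212 and 101685 of the own DMSO (log2 0.11, adjusted p = 0.718), but above the 33972 to 47667 of the other 4 DMSO libraries (1.22, adjusted p = 0.000383). The Y RNAs, partners of the Ro protein, gave no name that passed both tests: HY4 differed from its own DMSO only (0.83, adjusted p = 0.00917), HY3 from the other DMSO libraries only (0.55, adjusted p = 0.00452), and HY1 and HY5 from neither. 5S ribosomal RNA had an adjusted p of 0.22 against its own DMSO. DMSO 24 h replicate 1 held 406 CPM of 5S and the other 5 DMSO libraries 71.1 to 96.1. Without its most abundant copy 5S was higher than in both controls (0.87, adjusted p = 0.00501, and 0.63, adjusted p = 0.00711).

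Among transfer RNAs a minority of copies and names rose and none fell. Of 154 tested tRNA copies 18 rose (11.7%) and 0 fell, against backgrounds of 3.74% and 2.46%. Their median log2 difference was 1.13 from the own DMSO and 0.39 from the other DMSO libraries, beside -0.04 and -0.16 for all copies. With library size as the only scaling the tRNA medians were 0.80 and 0.12, and over copies whose count reached 10 in each library 1.01 and 0.10. Of 56 tRNA names 31 were higher than in the own DMSO (55.4%, against 28.5% of all names), 14 of these also against the other libraries (25.0%, against 13.3%) and 0 lower. The 14 carry glutamine, histidine, leucine, methionine, serine, lysine, tyrosine, cysteine, proline or glutamate. The reads of a total RNA library of this kind cover mature tRNA poorly, and the table does not separate precursors from mature molecules.

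The glutamine tRNAs led the group. tRNA-Gln-CAG, all copies summed, stood at 84.0 and 84.9 CPM with 5-FU, at 8.18 and 7.99 in its own DMSO, and at 30.9 to 39.6 in the other 4 DMSO libraries. Its log2 difference was 3.38 (SE 0.24, adjusted p = 1.25e-06) from the own DMSO and 1.28 (adjusted p = 0.000105) from the others, because DMSO 12 h lay below the other DMSO libraries for this tRNA. The copy at chr6:27263212-27263283 held 87.7% of the counts. Without it the differences were 0.21 (adjusted p = 0.739) and -0.06 (adjusted p = 0.884), so the rise of this name was that of 1 copy. tRNA-Gln-CAA stood at 113 and 122 CPM against 16.4 and 23.6 in its own DMSO and 37.5 to 52.5 in the others, a log2 difference of 2.56 (SE 0.22) and 1.42. tRNA-His-CAY_ stood at 218 and 210 CPM against 67.6 and 54.6 and against 96.4 to 121. tRNA-Met, which carries methionine, stood at 64.3 and 72.2 CPM against 16.4 and 11.5 and against 22.2 to 30.7. In each of these 4 tRNAs both treated libraries lay above all 6 controls, which is part of the rule by which the first 3 were chosen. Unlike tRNA-Gln-CAG, tRNA-Gln-CAA and tRNA-His-CAY_ still passed against both controls without their most abundant copy.

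Some tRNAs owed their call to the control. tRNA-Ile-ATT stood at 66.0 and 74.5 CPM with 5-FU and at 12.6 and 17.9 in its own DMSO, but the other DMSO libraries held 49.1 to 60.9, and the difference from them was 0.33 with an adjusted p of 0.0854. tRNA-Thr-ACG stood at 23.6 and 40.4 CPM against 3.77 and 4.15, beside 27.0 to 34.7 in the other DMSO libraries (0.09, adjusted p = 0.737).

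The U RNAs, which build the spliceosome and guide ribosomal RNA processing, were higher in part. Of 80 tested copies 7 rose (8.75%) and 0 fell, beside 3.74% and 2.46% of all copies, with medians of 0.37 and 0.51 (0.06 and 0.25 with library size alone). Among the 11 names U1, U2, U4, U5 and U8 rose against both controls (45.5%, against 13.3% of all names). U1, which recognises the 5′ splice site, stood at 39611 and 38129 CPM with 5-FU, against 13736 and 18190 in its own DMSO and 13607 to 21986 in the others (log2 1.28, adjusted p = 0.00106, and 1.01, adjusted p = 0.00212). U2, which binds the branch point, stood at 25949 and 24898 CPM against 13469 and 16085 and against 11858 to 15594 (0.78, adjusted p = 0.000651, and 0.91, adjusted p = 0.000116). 1 copy held 96.3% of U1 and 96.5% of U2, and without it the difference from the own DMSO turned, to -4.80 (adjusted p = 0.017) for U1 and -4.76 (adjusted p = 1.73e-06) for U2. From the other DMSO libraries the remaining copies did not turn, with 1.07 (adjusted p = 0.391) for U1 and 0.85 (adjusted p = 0.0186) for U2. U4 and U5 passed against both controls without their most abundant copy. U3, a guide of ribosomal RNA cleavage, did not pass against its own DMSO (-0.20, adjusted p = 0.33) and was higher than in the other DMSO libraries (0.39, adjusted p = 0.0268). U6 and U13 differed from their own DMSO only.

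The ribosomal RNA counts followed the control. LSU-rRNA_Hsa stood at 119425 and 103306 CPM with 5-FU and at 52476 and 64564 in its own DMSO (log2 0.93, adjusted p = 0.0331), whereas the other DMSO libraries held 76638 to 201014 and the difference from them was -0.18 (adjusted p = 0.615). Kits for total RNA usually include a step that removes ribosomal RNA, and the labels do not say how complete it was.

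**Figure D1:**
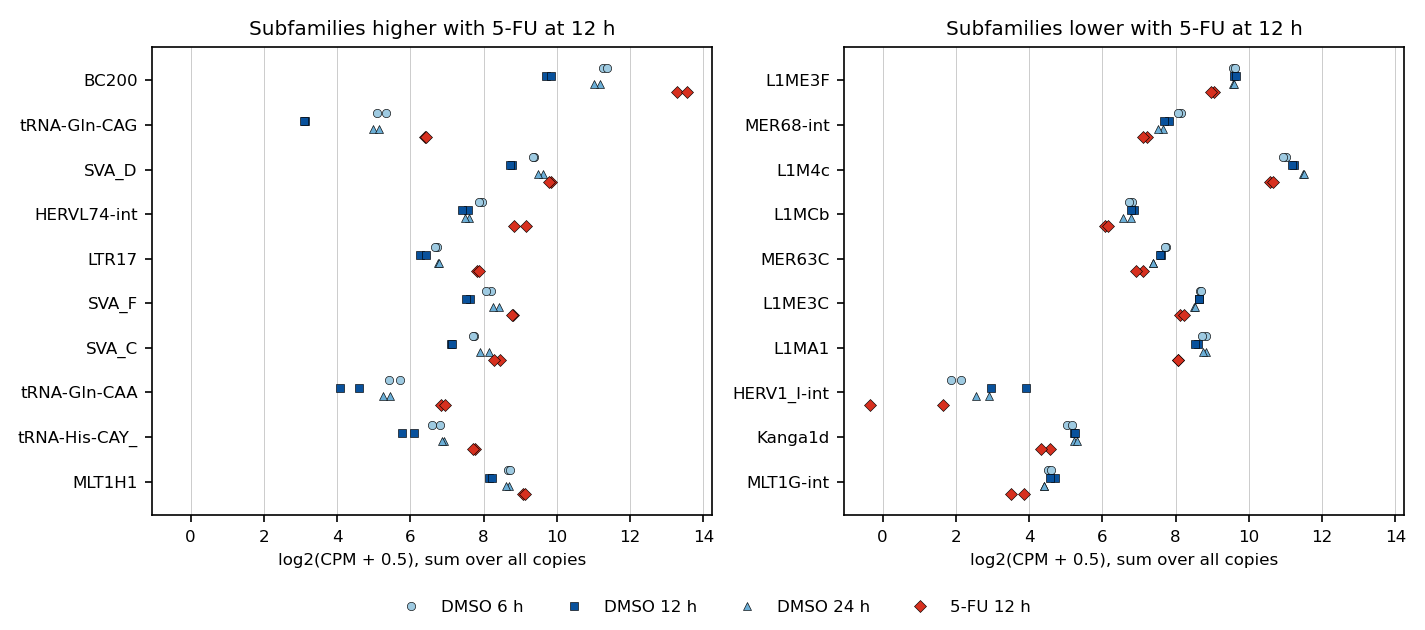
Level of the 10 repeat names with the smallest p-value among those that rose and the 10 among those that fell against both controls, as log2(CPM + 0.5) on the horizontal axis, 1 row per name and 1 point per library for DMSO 6 h, 12 h and 24 h and for 5-FU 12 h. BC200 and the glutamine tRNAs show the widest gaps, and in them DMSO 12 h lies left of the other DMSO libraries.

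Alu copies shifted upwards by a small amount. Of 16525 tested Alu copies 871 rose (5.27%) and 217 fell (1.31%), beside 3.74% and 2.46% of all copies, and their median log2 difference was 0.40 from the own DMSO and 0.20 from the other DMSO libraries. The fossil monomers FLAM, FRAM and FAM had medians of 0.44 and 0.32 over 645 copies. AluJ, the oldest dimers, had 0.29 and 0.14 over 4539 copies, AluS 0.43 and 0.21 over 10358, and AluY, the youngest, 0.48 and 0.25 over 1628. The sign of these medians rests on the scaling: with library size alone the Alu median was 0.07 against the own DMSO and -0.06 against the others, and the AluJ median -0.03 and -0.11. Over copies whose count reached 10 in each library the Alu median was 0.15 and 0.04, and the AluJ median 0.05 and 0.008. Against untreated cells the Alu median at 12 h was 0.075, beside -0.027 for all copies. At 6 h the Alu median was 0.13 and at 24 h -0.004, each against the DMSO of its time.

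Summed by name, all 17 AluS names, all 4 AluJ names and all 4 monomer names were higher than in the own DMSO, but 2, 0 and 2 of them also passed against the other DMSO libraries. FLAM_C rose in both. It stood at 4544 and 4940 CPM with 5-FU, 2293 and 2412 in its own DMSO and 3217 to 3561 in the others, a log2 difference of 1.01 (SE 0.11, adjusted p = 1.72e-05) and 0.48 (adjusted p = 0.00166). AluYb8, a young Alu with a short internal duplication, stood at 474 and 536 CPM against 259 and 268 and against 341 to 388 (0.94, adjusted p = 0.000176, and 0.49, adjusted p = 0.00444).

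Of 6 SVA names SVA_A, SVA_C, SVA_D and SVA_F rose, while the median of single SVA copies changed sign with the control. SVA_A stood at 143 and 139 CPM with 5-FU, 54.1 and 49.8 in its own DMSO and 73.8 to 92.9 in the other DMSO libraries (log2 1.44, adjusted p = 4.57e-06, and 0.75, adjusted p = 0.000277). SVA_D stood at 916 and 885 CPM against 437 and 424 and against 653 to 786 (1.07, adjusted p = 1.65e-06, and 0.36, adjusted p = 0.00148). SVA_C without its most abundant copy no longer passed against the other DMSO libraries (0.18, adjusted p = 0.166). SVA_B stood at 163 and 163 CPM, above its own DMSO (109 and 111) but inside the 149 to 195 of the others, and SVA_E was below the other DMSO libraries (-0.73, adjusted p = 0.00747). Over 261 tested SVA copies, of which 27 rose (10.3%) and 2 fell (0.766%), beside 3.74% and 2.46% of all copies, the median was 0.74 from the own DMSO and -0.26 from the others, or 0.89 and 0.38 over copies whose count reached 10 in each library.

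L1 copies moved the other way. Of 15174 tested L1 copies 301 rose (1.98%) and 669 fell (4.41%), against 3.74% and 2.46% of all copies, with a median log2 difference of -0.56 from the own DMSO and -0.66 from the other DMSO libraries. The young names L1HS to L1PA8 had medians of -0.62 and -0.98 over 2402 copies, and L1PA10 to L1PA17 with L1PB -0.83 and -0.90 over 1413. For L1MA and L1MB they were -0.53 and -0.66 over 3065 copies, and for the ancient L1MC, L1MD and L1ME names -0.51 and -0.52 over 6390. These medians kept their sign with library size alone (-0.88 and -0.92 for all L1) and where each library held 10 counts or more (-0.31 and -0.24). At 6 h the L1 median was -0.20 and at 24 h -0.03.

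**Figure D2:**
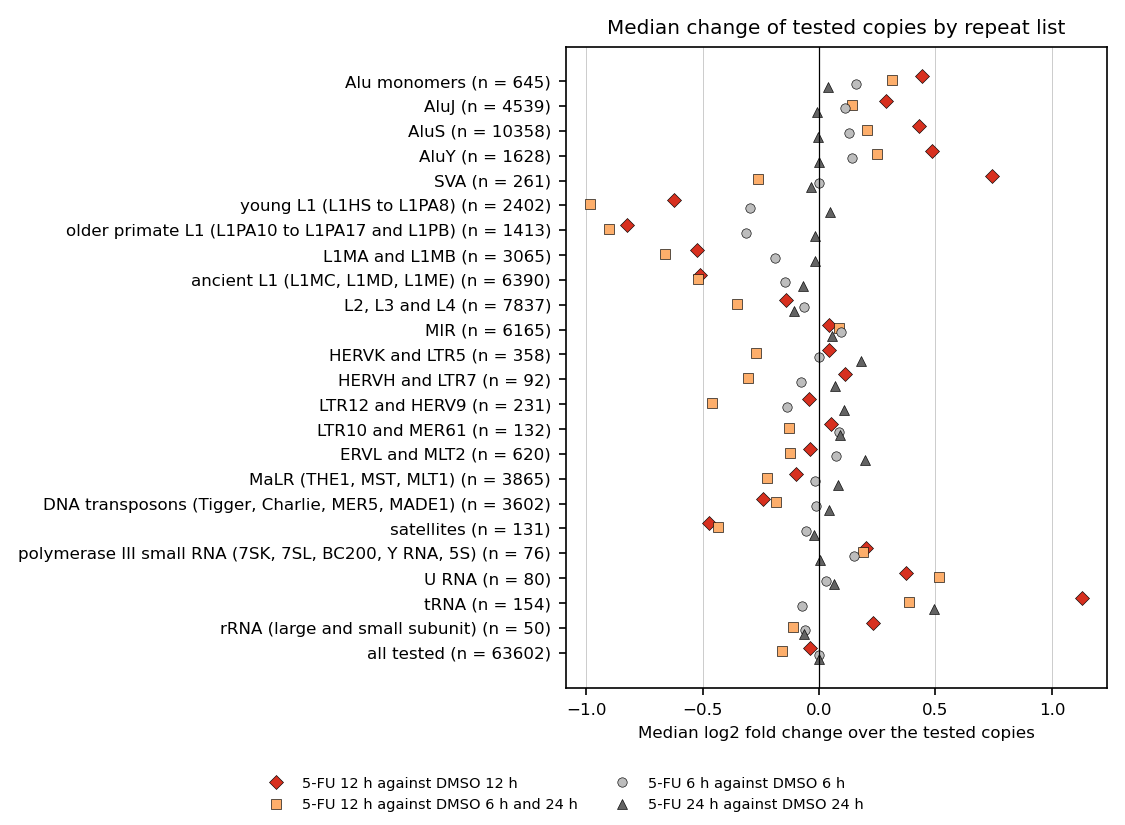
Median log2 difference of the tested copies of each repeat list on the horizontal axis, 1 row per list, for 5-FU 12 h against its own DMSO, 5-FU 12 h against the mean of DMSO 6 h and 24 h, and 5-FU at 6 h and 24 h against the DMSO of those times. The L1 lists lie left of 0 under both 12 h comparisons, the Alu lists right of it, and SVA changes side with the control.

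The amount of L1 relative to Alu was compared within each library, where no scaling between libraries enters. The 5-FU 12 h libraries held 0.472 and 0.447 L1 counts per Alu count (mean 0.459, SD 0.0176, n = 2). Their own DMSO libraries held 0.787 and 0.712, DMSO 6 h 0.693 and 0.689, and DMSO 24 h 0.545 and 0.638, a mean of 0.677 over the 6 (SD 0.0809). Both treated libraries lay below all 6 controls, at 0.613 times their own DMSO and 0.678 times the mean of the 6. An exact two-sided permutation test of 2 against 6 gave p = 0.0714, the smallest value this design allows. The untreated libraries, with 0.551 and 0.498, and 5-FU at 24 h, with 0.499 and 0.716, were closer to the treated pair than most DMSO libraries, except for 5-FU 24 h replicate 2 at 0.716. As shares of all counts outside structural RNA, L1 made up 15.5% and 15.1% with 5-FU at 12 h and 18.0% to 21.0% in the 6 DMSO libraries, and Alu 32.9% and 33.8% against 26.7% to 33.0%, so the L1 shares did not overlap and the Alu shares did.

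**Figure D3:**
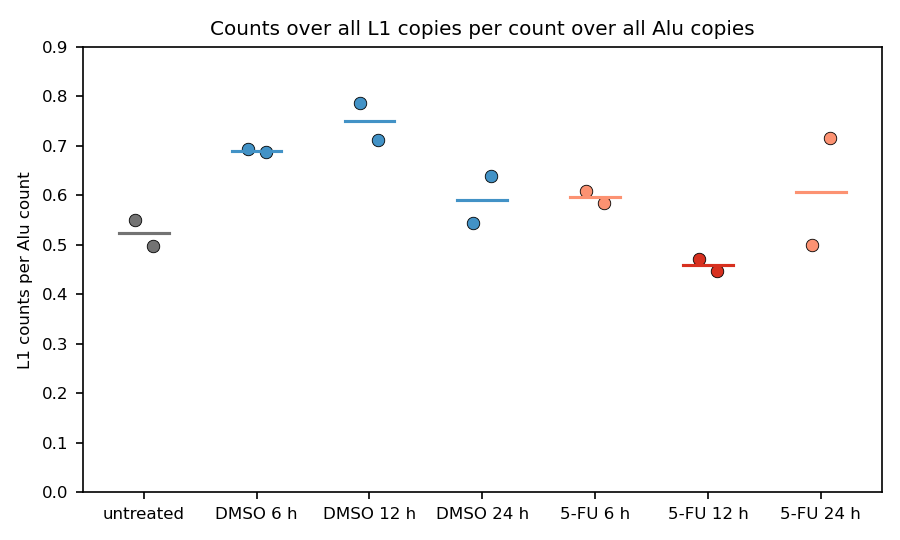
L1 counts per Alu count in each of the 14 libraries on the vertical axis, by group on the horizontal axis, with a line at each group's mean. The 5-FU 12 h libraries, at 0.472 and 0.447, lie below all other libraries shown, with untreated replicate 2 at 0.498 the nearest.

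The L1 deficit was greater in longer copies. Counts in L1 copies of 1 to 300 bases, per Alu count, differed by -0.53 on the log2 scale from the own DMSO and by -0.33 from the other DMSO libraries. The differences were -0.62 and -0.36 for the next class, up to 600 bases, -0.75 and -0.51 up to 1200, -0.91 and -0.68 up to 2500, and -0.98 and -0.79 for longer copies. In every length class both 5-FU libraries lay below all 6 DMSO libraries (exact permutation p = 0.0714 each, the smallest possible). The same order by length appeared in tested repeats other than L1, AluJ, AluS and AluY, a set that includes structural RNA and the Alu monomers. The median log2 difference of these copies went from 0.07 in the shortest class to -0.75 in the longest against the own DMSO. Against the others it went from 0.10 to -0.86. L1 copies that reach past base 6000 of their consensus, near its 3′ end, had a median of -0.57 and those that do not -0.55.

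**Figure D4:**
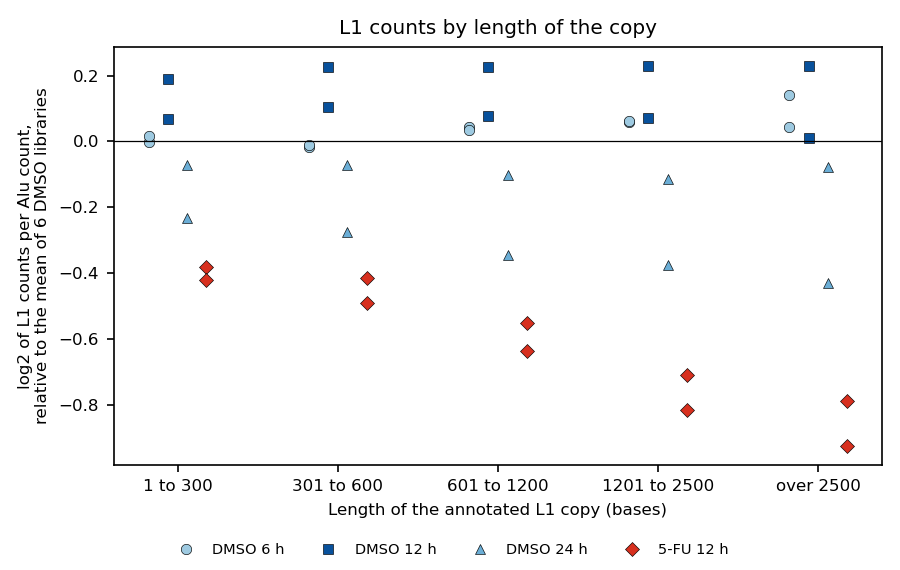
L1 counts per Alu count by length of the L1 copy (horizontal axis, bases), as log2 relative to the mean of the 6 DMSO libraries (vertical axis), 1 point per library in each class. The 5-FU 12 h points lie below every DMSO point in all 5 length classes and fall towards longer copies.

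Of 125 L1 names 18 fell against both controls (14.4%) and 6 rose (4.8%), beside backgrounds of 4.82% and 13.3%, and 10 of the 18 belong to L1MC, L1MD and L1ME. L1MA1 stood at 268 and 265 CPM with 5-FU, 391 and 367 in its own DMSO and 425 to 457 in the others (log2 -0.51, SE 0.10, adjusted p = 0.00151, and -0.73, adjusted p = 0.000105). L1ME3F stood at 528 and 503 CPM against 766 and 797 and against 753 to 786 (-0.60, adjusted p = 4.27e-05, and -0.57, adjusted p = 8.16e-05). In both names the treated libraries lay below all 6 controls. The 9 young L1 names did not pass against their own DMSO: L1HS, which includes the copies that can still move, stood at 499 and 454 CPM beside 500.0 and 455, while the other DMSO libraries held 506 to 755 (-0.36, adjusted p = 0.0188). The median of the 9 young names was -0.16 from the own DMSO, and -0.40 with scaling factors from the filtered copies.

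MIR, L2 to L4 and DNA transposon copies lay closer to 0 than L1 copies, whereas satellites lay near the ancient L1 names. The sign of the MIR, L2, L3 and L4 medians changed between scalings or filters. MIR copies, tRNA-derived SINEs of early mammals, had medians of 0.04 and 0.09, with 262 of 6165 risen (4.25%) and 108 fallen (1.75%). L2, L3 and L4 had medians of -0.14 and -0.35, with 238 risen (3.04%) and 176 fallen (2.25%) of 7837. DNA transposons had -0.24 and -0.19, with 111 risen (3.08%) and 88 fallen (2.44%) of 3602. Of 131 satellite copies 7 rose (5.34%) and 9 fell (6.87%). Their medians were -0.47 and -0.43, or -0.62 and -0.40 over copies whose count reached 10 in each library. The shares of all copies were 3.74% and 2.46%, close to those of L2 to L4 and the DNA transposons.

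Endogenous retroviruses and their long terminal repeats (LTRs) split by name. Of 3865 MaLR copies, an old mammalian LTR group, 134 rose (3.47%) and 85 fell (2.20%), near the 3.74% and 2.46% of all copies, and of 620 ERVL and MLT2 copies 33 rose (5.32%) and 12 fell (1.94%). HERVL74-int, the internal part of an ERVL element, stood at 567 and 455 CPM with 5-FU, 190.0 and 169 in its own DMSO and 179 to 247 in the others (log2 1.51, SE 0.12, adjusted p = 1.74e-06, and 1.27, adjusted p = 1.50e-06). LTR17, the LTR of HERV17, stood at 226 and 236 CPM against 75.8 and 85.6 and against 101 to 110 (1.52, adjusted p = 1.74e-06, and 1.13, adjusted p = 5.03e-06). Both names still passed against both controls without their most abundant copy.

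LTR12C, the LTR of HERV9, stood at 770 and 704 CPM with 5-FU, 412 and 410 in its own DMSO and 600 to 647 in the others (log2 0.84, adjusted p = 4.57e-06, and 0.22, adjusted p = 0.014). LTR7 rose while HERVH-int, the body of the provirus that LTR7 flanks, fell: HERVH-int stood at 133 and 143 CPM against 204 and 188 and against 207 to 244 (-0.51, adjusted p = 0.0388, and -0.71, adjusted p = 0.00356). LTR10 and MER61, whose copies are known to carry p53 binding sites, had 7 of 132 tested copies risen (5.30%) and 4 fallen, beside backgrounds of 3.74% and 2.46%, with medians of 0.05 and -0.13, which were 0.19 and 0.16 over copies whose count reached 10 in each library. LTR10C was higher than in its own DMSO only (0.66, adjusted p = 0.0108, and -0.05, adjusted p = 0.796).

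The copies described singly were required to have both 5-FU libraries outside the range of the 6 DMSO libraries and a log2 difference of at least 1 from both controls. Copy levels are in CPM scaled by TMM over the tested copies. The L1MB7 copy at chr16:88455450-88455994 stood at 170 and 162 CPM with 5-FU at 12 h, 8.16 and 7.65 in its own DMSO, and 8.05 to 17.9 in the other 4 DMSO libraries. Its log2 difference was 4.39 (SE 0.31, adjusted p = 2.30e-08) from the own DMSO and 3.77 (adjusted p = 1.90e-09) from the others. It was higher at the other times too, by 2.16 at 6 h and 4.06 at 24 h.

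The AluSz copy at chr12:69234616-69234915 stood at 602 and 691 CPM against 80.4 and 91.4 in its own DMSO and 101 to 124 in the others (2.91, SE 0.23, adjusted p = 1.08e-07, and 2.54). The L2b copy at chr6:36654978-36655104 stood at 3080 and 3287 CPM against 492 and 467 and against 404 to 459 (2.73, adjusted p = 8.07e-07, and 2.87). The L1PB1 copy at chr3:178676416-178677743 stood at 111 and 104 CPM against 7.78 and 4.21 and against 9.55 to 12.7 (4.16, adjusted p = 2.07e-07, and 3.33). For these 3 copies the own DMSO did not differ from the other DMSO libraries at an adjusted p of 0.05, and all 3 were already called at 6 h.

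Of 4 further risen copies, FLAM_C, AluY and L2c were not called at 6 h, and LTR17 was (adjusted p = 0.0135). The FLAM_C copy at chr16:67844891-67845026 stood at 996 and 1218 CPM with 5-FU, 112 and 106 in its own DMSO and 193 to 351 in the others (3.34, adjusted p = 2.39e-08, and 2.09). At 6 h it stood at 372 and 441 CPM, a difference of 0.28 with an adjusted p of 0.811. The AluY copy at chr13:110874839-110875148 stood at 65.6 and 81.0 CPM against 2.59 and 5.35 and against 3.33 to 10.9 (4.2, adjusted p = 3.31e-07, and 3.36). The LTR17 copy at chr8:55060881-55061641 stood at 102 and 98.4 CPM against 10.4 and 11.5 and against 5.00 to 9.46 (3.20, adjusted p = 1.15e-06, and 3.63). The L2c copy at chr12:91573224-91573384 stood at 115 and 106 CPM against 14.8 and 13.0 and against 22.1 to 26.9. It was at 77.3 and 92.1 CPM in the untreated cells, so the DMSO libraries and the untreated libraries differed there as well.

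In 3 risen copies the own DMSO held so few counts that no fold from it is given, apart from a lower bound for LTR6A. The AluY copy at chr15:75867324-75867613 held 161 and 189 counts with 5-FU (47.3 and 54.9 CPM), 5 and 1 in its own DMSO and 29 to 42 in the others (adjusted p = 1.36e-07). The BSR/Beta satellite copy at chr19:23489887-23491514 held 143 and 131 counts against 0 and 2 and against 7 to 27. The LTR6A copy of 30 bases at chr8:81471111-81471140 held 1990 and 2010 counts with 5-FU and 0 in both own DMSO libraries, at least 517-fold higher when each empty library is set to 3 counts, while the other DMSO libraries held 850 to 1236. Against these the LTR6A difference was 1.56 (adjusted p = 5.54e-05), so most of the first fold belongs to DMSO 12 h.

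The LSU-rRNA_Hsa fragment at chr4:76807176-76807697 is a similar case, with 267 and 297 CPM against 4.45 and 3.44 in its own DMSO but 106 to 160 in the others. Its log2 difference was 6.15 from the own DMSO, 1.14 (adjusted p = 0.0219) from the mean of the others and 0.99 (adjusted p = 0.109) from DMSO 24 h alone.

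Among the copies that fell, some were not called at 24 h. The LFSINE_Vert copy at chr4:119955419-119955601, from an ancient SINE conserved among vertebrates, stood at 3.23 and 2.61 CPM with 5-FU at 12 h, 33.0 and 37.9 in its own DMSO and 30.7 to 52.9 in the others (-3.59, SE 0.30, adjusted p = 1.85e-07, and -3.76). At 6 h it stood at 54.0 and 47.2 CPM and at 24 h at 41.5 and 33.9, and the 12 h effect differed from the mean of those by -3.71 (adjusted p = 2.39e-06). The untreated libraries held 9.01 and 11.7 CPM, above the 12 h 5-FU libraries and below all DMSO libraries. The MIR3 copy at chr7:131185625-131185775 stood at 4.70 and 3.48 CPM against 32.2 and 39.4 and against 11.2 to 35.6 (-3.12, adjusted p = 2.11e-06, and -2.20). The L3b copy at chr15:39890283-39890484 stood at 36.2 and 27.6 CPM against 169 and 223 and against 93.1 to 228 (-2.62, adjusted p = 7.61e-07, and -2.18). At 24 h the MIR3 difference was -0.09 (adjusted p = 0.927). The L3b difference at 24 h was -0.83 (adjusted p = 0.0375), so L3b was called then, unlike LFSINE_Vert and MIR3.

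In 3 further copies the difference at 24 h was called as well. The L1MD3 copy at chr9:21865801-21867638 stood at 6.47 and 5.23 CPM with 5-FU, 61.2 in both own DMSO libraries and 26.4 to 37.5 in the others (-3.38, SE 0.26, adjusted p = 6.53e-08, and -2.41), with differences of -1.74 at 6 h and -2.36 at 24 h. The L1PA15 copy at chr11:58893817-58894870 stood at 10.9 and 13.4 CPM against 116 and 104 and against 37.7 to 85.2 (-3.18, adjusted p = 3.08e-07, and -2.29), and its difference at 24 h was -5.51. The MER45C copy at chr16:33964922-33965030 stood at 2.06 and 1.45 CPM against 61.5 and 34.0 and against 33.5 to 69.9 (-4.75, adjusted p = 6.04e-07, and -4.62), and its difference at 24 h was -1.77.

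No fold is given for 2 fallen copies with few counts, which were not called at 24 h. A nearly full-length L1PA4 copy of 6116 bases at chr5:136753493-136759608 held 6 and 2 counts with 5-FU, 89 in both own DMSO libraries and 35 to 108 in the others (adjusted p = 7.31e-07). The MER33 copy at chr9:100618912-100619192 held 5 and 1 counts against 92 and 93 and against 45 to 95 (adjusted p = 7.94e-07).

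**Figure D5:**
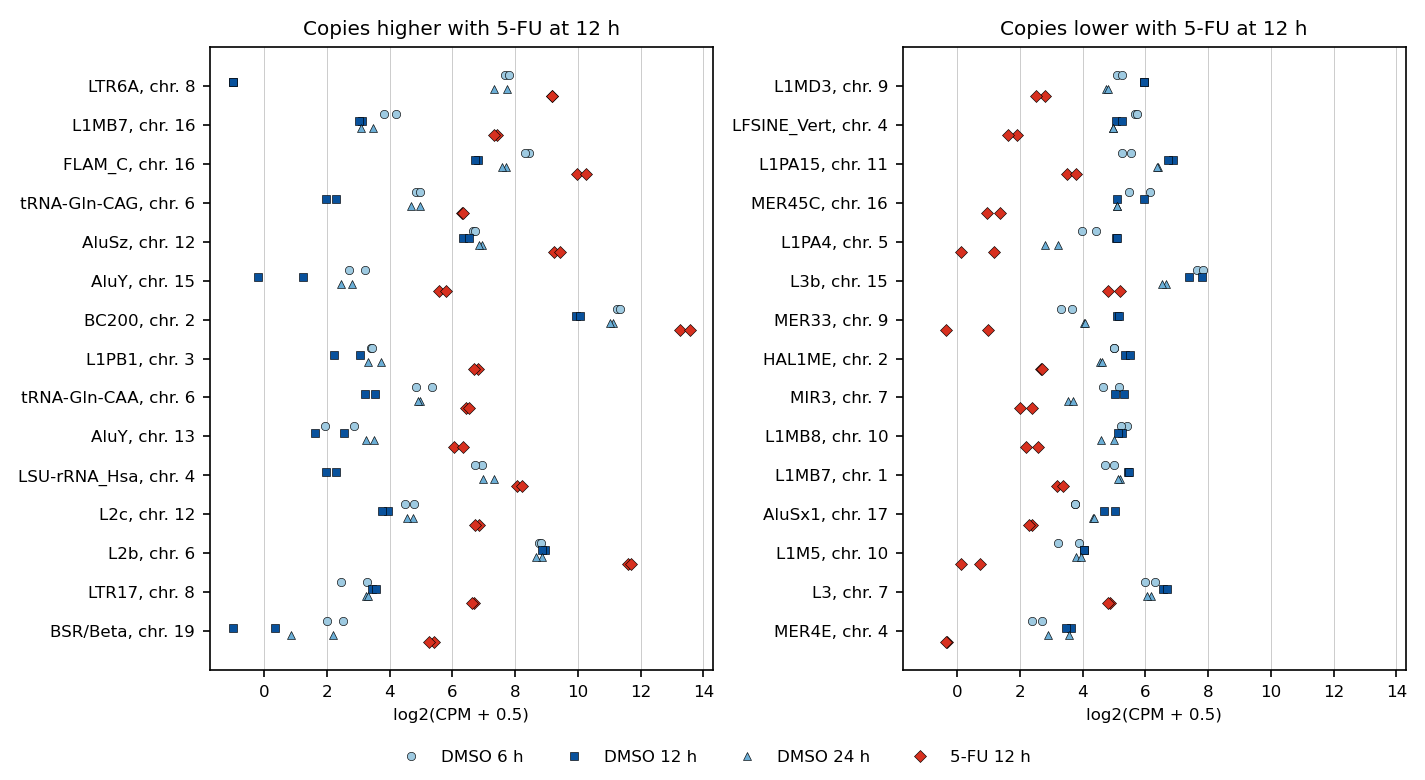
Level of the 15 risen and 15 fallen repeat copies with the smallest p-values against the own DMSO, as log2(CPM + 0.5) on the horizontal axis, 1 row per copy and 1 point per library for DMSO 6 h, 12 h and 24 h and for 5-FU 12 h. The 5-FU points lie outside all 6 DMSO points in every row, as the rule that chose the copies required, and LTR6A, LSU-rRNA_Hsa and tRNA-Gln-CAG show DMSO 12 h far left of the other DMSO points.

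Part of the changed copies lay in runs along the genome. With at most 50 kb between successive copies, the 2381 risen copies formed 1393 runs, of which 940 were single copies and 187 held 3 or more copies and together 909 copies (38.2%). The 1563 fallen copies formed 871 runs, 589 of them single copies, and 151 of 3 or more held 712 copies (45.6%). Copies of a run can be read from a single transcript, so they are not independent. The runs that an equal number of tested copies would form were not counted, so these shares have no background beside them.

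The greatest run of risen copies, at chr12:69204115-69248420, held 36 called copies of 67 tested, 24 of the called ones Alu, and all 67 were higher than in their own DMSO. The called copies together stood at 2482 and 2737 CPM with 5-FU at 12 h and at 392 to 489 in the 6 DMSO libraries, and their median log2 difference was 3.22 from the own DMSO and 2.30 from the others. At 6 h they stood at 1695 and 1781 CPM. A run at chr3:178654648-178741807 held 21 called copies of 50 tested, all 50 higher, at 482 and 468 CPM against 88.3 to 109 in the DMSO libraries. A run of 6.21 kb at chr6:36648896-36655104 held 12 called copies of 14, at 3268 and 3512 CPM against 424 to 503. The AluSz, L1PB1 and L2b copies described singly above are members of the chromosome 12, 3 and 6 runs, so they are not separate results. L2b alone stood at 3080 and 3287 CPM, most of the level of the chromosome 6 run. Since the summed copies were those called higher against both controls, the position of the treated libraries above the controls follows from the choice.

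The greatest run of fallen copies, at chr10:96362459-96373715, held 23 called copies of 33 tested, all 33 lower, at 26.5 and 21.8 CPM with 5-FU against 126 to 199 in the DMSO libraries (median log2 -2.92 and -2.84). At 24 h it stood at 11.8 and 18.0 CPM. A run at chr4:177613584-177695076 held 16 called copies of 48 tested, at 20.9 and 12.8 CPM against 57.0 to 102, and one at chr12:66233452-66327769 held 11 of 81, at 13.5 and 14.8 CPM against 46.6 to 73.5. In the chromosome 12 run 78 of the 81 tested copies were lower than in their own DMSO. At 24 h that run stood at 31.3 and 53.9 CPM with 5-FU, the first below the DMSO range and the second within it.

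The median of tested Alu copies lay above that of L1 copies on 23 of 23 chromosomes under both controls. The median of all tested copies of a chromosome was highest on chromosome 19 (0.36) and chromosome 16 (0.34), and lowest on chromosome 4 (-0.35) and chromosome 18 (-0.34), against the own DMSO. It lay above 0 on 5 of 23 chromosomes under each control.

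Some strong calls against the own DMSO were absent or turned against the other DMSO libraries. The U2 copy at chr10:103124607-103124792 stood at 65.8 and 70.3 CPM with 5-FU, 4775 and 5842 in its own DMSO and 18.8 to 25.6 in the others. It was therefore lower than its own DMSO (-6.28, adjusted p = 3.08e-07) and higher than the others (1.54, adjusted p = 0.0108). The LSU-rRNA_Hsa fragment at chr18:77772847-77773065 stood at 92.9 and 126 CPM against 1775 and 2012 in its own DMSO and 66.3 to 115 in the others. The Tigger4b copy at chr16:29453571-29453909 held 61 and 81 counts with 5-FU and 0 in both own DMSO libraries, at least 18.3-fold higher with 3 counts per empty library, whereas the other DMSO libraries held 138 to 164. The L1M6B copy at chr7:143306996-143307193 held 267 and 173 counts in its own DMSO and 0 in the 5-FU 12 h libraries, at least 94.2-fold lower by the same floor, and 0 in the DMSO 6 h and 24 h libraries.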

How the data were processed

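IMR90 total RNA was extracted with an RNeasy kit and made into stranded total RNA libraries, per the labels' protocols. The authors deposited raw counts per annotated repeat copy in 1 table for 14 libraries, on hg19. Trimmomatic 0.32, cutadapt 1.10, Bowtie2, edgeR and DESeq2 are named in the submitters' processing notes. The counting program, the repeat annotation and the treatment of reads with several matches are not given in the sources used here. Of the 2404193 copies 41.6% held 0 counts in every library.

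From these counts, edgeR 4.0.16 (R 4.3.3) fitted 1 quasi-likelihood model over the 14 libraries, which share 1 estimate of spread, to 63602 copies that passed its low-count filter and to 1078 names with counts summed over all copies. TMM factors came from the filtered copies for copies and from all copies for names. Calls used a Benjamini-Hochberg adjusted p of 0.05 over all features of a level. In simulated data, the test recovered 89% of names changed 2-fold and 95% changed 4-fold, but 0% and 9% of copies. At each fold 100 of 1078 names or 100 of 63602 copies were changed, a far smaller share of copies. In the data 9.71% of copies were called, so the simulation does not measure the sensitivity for single copies there. Named items were the 15 risen and 15 fallen copies and the 10 risen and 10 fallen names with the smallest p against the own DMSO among those called against both controls (for copies at most 1 in any 100 kb), plus 5 per direction called against DMSO 12 h and not in the same direction against the others; lists and other names were picked for their role. The comparison, the lists and the rules were chosen with earlier results of these data known. Alternatives covered scaling, filters, DESeq2 1.42.0, controls, thresholds, left-out libraries and a replicate block. Same-numbered libraries did not deviate together (correlations -0.10 to 0.14), so no pairing was used. The Nutlin libraries and their DMSO were not used here.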

Additional observations from a re-analysis of the deposited data

Results flagged for a closer look

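The effect at 12 h differed from the mean of the effects at 6 h and 24 h for 39 of the named copies and names. These were among the 15 risen and 15 fallen copies and the 10 risen and 10 fallen names called against both controls. The calls came from edgeR's test of that difference, at an adjusted p under 0.05. It passed for 0.725% of all tested copies and 13.9% of all names. The named items were picked for the smallest p against the own DMSO, and that effect is a term of this test. A high share of passes among them therefore follows in part from the choice. The test draws on the DMSO 12 h libraries, which stood apart, so it cannot separate a change in the treated cells at 12 h from a change in that control. The values below are log2 differences of effects.

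Among the copies that rose, the difference was 1.70 for FLAM_C on chromosome 16, 3.36 for tRNA-Gln-CAG, 2.18 for tRNA-Gln-CAA, 1.84 for BC200, 2.56 for L2c and 2.59 for AluY on chromosome 13. It was 3.89 for AluY on chromosome 15, 4.29 for BSR/Beta, 5.98 for LSU-rRNA_Hsa on chromosome 4 and 13.78 for LTR6A, whose DMSO 12 h libraries held few or no counts. The value of LTR6A depends on the small count added to an empty library and is no bound.

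In the copies that fell, the difference was -3.71 for LFSINE_Vert, -3.10 for MIR3, -2.57 for MER45C, -2.28 for L3b, -2.09 for L1MB8, -1.81 for HAL1ME, -1.33 for L1MD3 and -1.32 for L1MB7 on chromosome 1. It was -5.66 for MER33, -4.15 for L1PA4 and -3.69 for MER4E, which held 6 or fewer counts in each 5-FU 12 h library.

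For names that rose, the difference was 1.97 for BC200, 2.44 for tRNA-Gln-CAG, 1.65 for tRNA-Gln-CAA and 1.29 for tRNA-His-CAY_. The SVA names gave 0.90 for SVA_D, 0.92 for SVA_F and 1.04 for SVA_C, and the LTR names 0.60 for HERVL74-int, 0.80 for LTR17 and 0.67 for MLT1H1. For names that fell it was -0.41 for L1ME3F, -0.57 for L1M4c, -0.66 for L1MCb, -0.38 for L1ME3C and -0.45 for L1MA1 among L1. It was -0.37 for MER68-int, -0.54 for MER63C and -0.99 for MLT1G-int among the others.

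Of the items called against DMSO 12 h and not in the same direction against the other DMSO libraries, the copies gave 9.70 for Tigger4b, 5.10 for U6, 2.33 for AluSx, 3.31 for AluJb, -7.54 and -4.24 for LSU-rRNA_Hsa on chromosomes 12 and 18, -7.50 for L1M1 and -8.29 for U2. Tigger4b, U6 and L1M1 held 0 or few counts in 1 of the groups, so their values are no bound. The names gave 1.89 for tRNA-Ile-ATT, 2.94 for tRNA-Thr-ACG, 0.56 for AluSx4, 0.67 for AluSq4 and 0.39 for L2b.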

How the results depend on the processing

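The 30 copies that rose or fell against both controls kept their call and direction in all 170 and 172 values from other scalings, filters, DESeq2, the replicate block and left-out libraries. All of these were differences from the own DMSO. With other controls (the mean of DMSO 6 h and 24 h, each of these times alone, and untreated cells) 58 of 60 and 57 of 60 values held. The values for the mean held by the rule that chose the copies. The rest stayed in direction without passing: LSU-rRNA_Hsa on chromosome 4 against DMSO 24 h, and L2c, L1PA4, L3b and MIR3 against untreated cells. For names, 143 of 146 values held for those that rose and 143 of 149 for those that fell. BC200 without its main copy was at -0.055.

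Copies against the own DMSO (6177) numbered 2264 at an adjusted p of 0.01, 9377 with the mean of DMSO 6 h and 24 h as the control, 3688 with untreated cells, 2946 with no filter (more copies tested), 3807 with at least 10 counts in every library (fewer tested), and 2026 to 2818 with 1 library left out. Copies called against both (3944) numbered 1370 at 0.01, 1742 with no filter, 2413 with at least 10 counts and 1446 to 1790 with 1 library left out. Copies whose 12 h effect differed (461) numbered 115 at 0.01, 829 with library size alone, 1451 with at least 10 counts, 1230 with DESeq2 and 85 to 156 with 1 left out. Names against the own DMSO (364) numbered 241 at 0.01, 82 with an absolute log2 change of at least 1, 174 with untreated cells, 201 without the most abundant copy and 163 to 257 with 1 left out. Names called against both (195) numbered 93 at 0.01, 21 at log2 1, 372 with library size alone, 73 without the most abundant copy and 61 to 152 with 1 left out. Names whose 12 h effect differed (150) numbered 46 at 0.01, 42 at log2 1, 91 with relative log expression factors, 87 with TMM on the name sums (added after seeing the data) and 42 to 70 with 1 left out. Where no reason is given, the cause was not tested. With the replicate block, a pairing that only the numbers imply, the counts were 5564, 3546 and 334 for copies and 348, 183 and 133 for names.

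Without structural RNA in the total, the 5-FU 12 h share went from 18.4% to 33.4% for Alu, 8.43% to 15.3% for L1, 7.11% to 12.9% for MIR, 6.00% to 10.9% for L2 to L4 and 0.174% to 0.316% for SVA.

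Of the items called against DMSO 12 h and not in the same direction against the other DMSO libraries, 6 of 20 values for higher and 14 of 20 for lower copies turned direction with other controls, and 2 of 20 and 7 of 20 for names. L1M6B held 0 counts on both sides there and has no direction, and the rest kept theirs, mostly without passing. Turned values are named by control: mean (of DMSO 6 h and 24 h), 6 h, 24 h and untreated. Tigger4b was at -0.51, -0.54, -0.48 and -0.66, the U2 copy on chromosome 10 at 1.54, 1.62, 1.45 and 2.00, and LSU-rRNA_Hsa on chromosome 18 at 0.41, 0.12, 0.70 and 1.44. LSU-rRNA_Hsa on chromosome 12 was at 0.29 (mean), 0.68 (6 h) and 1.40 (untreated). L1M1, with 5 or fewer counts on both sides, was at 1.16 (mean), 2.38 (24 h) and 1.90 (untreated). An SSU-rRNA_Hsa copy was at -0.21 (6 h) and AluJb at -0.26 (untreated). Of names, MER136 was at 0.23, 0.15, 0.30 and 0.21, MLT1E at 0.016 (mean) and 0.054 (6 h), tRNA-Thr-ACG at -0.056 (24 h), AluSx4 at -0.037 and HSAT4 at 0.12 (untreated). The DMSO 12 h libraries are the shallowest, and how far depth limits the single copies was not tested.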

Other observations

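Some names passed both tests by way of 1 copy. L1M4c stood at 1519 and 1604 CPM with 5-FU, 2402 and 2331 in its own DMSO and 1964 to 2920 in the other DMSO libraries (log2 -0.60, edgeR adjusted p = 0.000457, and -0.63, adjusted p = 0.000277). The copy at chr11:65267133-65267487 held 52.7% of its counts, and without that copy the difference from the own DMSO was -0.19 (adjusted p = 0.13). L1M4c without it still passed against the other DMSO libraries (-0.38, adjusted p = 0.00326). MER63C stood at 138 and 121 CPM against 192 and 189 and against 166 to 212, and 62.9% of its counts came from chr20:45363955-45364874. Without it the differences were -0.40 (adjusted p = 0.118) and -0.30 (adjusted p = 0.111). MLT1H1, which rose, owed 40.5% of its counts to chr2:91805820-91806248, and without it stood at 0.19 (adjusted p = 0.239) and -0.13 (adjusted p = 0.26).

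HERV1_I-int, the internal part of a HERV1 element, held 9 and 1 counts with 5-FU at 12 h, 46 and 23 in its own DMSO and 16 to 37 in the other DMSO libraries (adjusted p = 0.00229 and 0.0372).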
